A study of Mus musculus with 3 samples.

Results

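The mitochondrial genome is a small circular DNA that carries a few protein genes of the respiratory chain, the 2 ribosomal RNAs of the mitochondrial ribosome and a set of transfer RNAs. Its genes were taken as all genes whose symbol starts with mt-, which gave 37 of the 55536 mouse genes measured: 13 protein genes, 2 rRNA genes and 22 tRNA genes. They were read in 3 libraries of polyadenylated RNA from mouse regulatory T cells, which hold immune responses in check, carry CD4 and need the transcription factor Foxp3. The libraries are technical replicates 1, 2 and 3 of 1 biological replicate and are named by these numbers. Their source was an adult male mouse, 4 months old, with Foxp3CreERT2, an inducible Cre recombinase driven by the Foxp3 gene, together with the Rosa26YFP reporter. The labels name no treatment, and they trace the cells to a hematopoietic cell of bone marrow. All libraries share this genotype and form 1 group, so no condition was compared, and every SD and p below describes the spread between libraries of 1 sample. The sources used here do not say how the cells were sorted, or whether they came from 1 animal or several.

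The 3 libraries held 9299054, 9188612 and 8284381 gene counts. All 6 regulatory T cell markers on the list (Foxp3, Il2ra, Ctla4, Ikzf2, Izumo1r and Tnfrsf18) were detected, with a summed level of 2920, 3156 and 2882 TPM (a level scaled to gene length and to the library total) in libraries 1, 2 and 3. Within this sum the level of Foxp3 was 27.6, 43.7 and 47.1 TPM. That of Il2ra, the interleukin-2 receptor alpha chain, was 211, 332 and 369 TPM, and both were lowest in library 1. Ctla4 (209.7, 230.1 and 210.3 TPM) and Ikzf2 (396, 467 and 412 TPM) were also lowest there. The rest of the list went otherwise. Tnfrsf18 was highest in library 1, at 761, 650 and 655 TPM, and Izumo1r was lowest in library 3, at 1315, 1434 and 1188 TPM. Erythroid markers summed to 1685, 9.02 and 1497 TPM, neutrophil markers to 34.0, 0 and 2.59 TPM and B cell markers to 147, 114 and 188 TPM. Gata2 and Elane were at 0 in every library. The libraries thus differed in markers of other cells, so an SD over them need not be technical spread alone. In bulk RNA such as this, fewer cells of a type and less RNA per cell cannot be told apart. A deposited count here is an expected count, an estimate that shares out reads which match several genes.

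Mitochondrial DNA is transcribed from both strands into long precursors that hold many genes. The tRNAs stand between most of the other genes, and their excision releases the mRNAs and rRNAs. Most mitochondrial mRNAs then receive a short poly(A) tail, which in some of them completes the stop codon. The genes of a strand thus share a precursor, and the amounts of their RNAs are known to depend on processing and decay as well.

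The reference transcripts show this compact layout. The ends of 5 protein genes are printed because the poly(A) tail, which completes some stop codons, is added there. Of 13 protein genes, 10 end in a stop codon written in full (8 with TAA and 2 with TAG). The other 3, mt-Co3, mt-Nd4 and mt-Cytb, end in a single T. The last 30 bases follow, from the GENCODE M21 transcripts of mm10, with the stop codon or its first base in capitals.
mt-Co1: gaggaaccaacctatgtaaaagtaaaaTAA
mt-Nd1: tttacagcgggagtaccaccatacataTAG
mt-Co3: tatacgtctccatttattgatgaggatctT
mt-Nd4: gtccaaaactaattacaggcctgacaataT
mt-Cytb: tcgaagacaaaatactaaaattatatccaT
The first codon is ATG in 9 of 13 protein genes. Of the other 4, mt-Nd1 starts with GTG, mt-Nd2 with ATA, mt-Nd3 with ATT and mt-Nd5 with ATC. Neighbouring genes also share bases. The end of mt-Atp8 and the start of mt-Atp6 share 43 bases at chrM:7927-7969 on the plus strand, printed with the start codon of mt-Atp6 and the stop codon of mt-Atp8 in capitals.
mt-Atp8 and mt-Atp6: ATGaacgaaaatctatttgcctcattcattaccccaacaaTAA
In the same way mt-Nd4l and mt-Nd4 share 7 bases and mt-Atp6 and mt-Co3 share 1 base. On opposite strands, mt-Nd5 and mt-Nd6 share 14 bases. A read of such shared bases can belong to either gene. The levels below treat each gene as a transcript of its own, so they do not show whether overlapping genes share an mRNA.

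All 13 protein genes and both rRNA genes were detected, that is, at 1 TPM or more in every library. The 22 tRNA genes could not be detected in this table, which gives each of them an effective length (the number of positions at which a fragment can start) of 0 and therefore 0 TPM at any count. Summed over the members the level was 57866, 50169 and 47035 TPM in libraries 1, 2 and 3. Their share of all gene counts was 4.05%, 3.05% and 2.95%, with 95% Wilson intervals of 4.04 to 4.07, 3.04 to 3.06 and 2.94 to 2.96. Library 1 stood above the others by more than counting error.

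Complex IV, cytochrome c oxidase, passes electrons to oxygen, and its 3 mitochondrial subunits were among the highest members. mt-Co3 (ENSMUSG00000064358.1, chrM:8607-9390, plus strand, 1 of the core subunits) had 12175, 8925 and 9591 TPM in libraries 1, 2 and 3, a mean of 10230.4 ± 1717 (SD, n = 3). It was the highest member in each library, and its range did not overlap that of the next member, though both points rest on how reads were shared with its nuclear copy Gm28437. mt-Co1 (ENSMUSG00000064351.1, chrM:5328-6872), the catalytic subunit, had 6991, 7639 and 7185 TPM, or 7271 ± 333. mt-Co2 (ENSMUSG00000064354.1, chrM:7013-7696), which receives electrons from cytochrome c, had 4297, 4962 and 3198 TPM, or 4153 ± 891. mt-Co2 was lowest in library 3, a value that also depends on the sharing of reads with its nuclear copy Gm28661.

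Complex V is the ATP synthase, and complex III hands electrons to cytochrome c. mt-Atp6 (ENSMUSG00000064357.1, chrM:7927-8607), a subunit of the proton channel, had 8470, 7868 and 5863 TPM, a mean of 7400.5 ± 1365. mt-Atp8 (ENSMUSG00000064356.3, chrM:7766-7969), a small subunit of the membrane part, had 4228, 3358 and 3429 TPM, or 3672 ± 483. The level of mt-Atp8 rests on few counts and on a short effective length. It had 1475, 978 and 890 counts over effective lengths of 43.2, 42.4 and 41.7 bases, against an annotated length of 204 bases. Expressed as counts per base of annotated length, mt-Atp8 took 1.93% of the summed level of the 15 detected members, against 7.10% in TPM. mt-Cytb (ENSMUSG00000064370.1, chrM:14145-15288), the mitochondrial subunit of complex III, had 5485, 4607 and 4310 TPM, or 4801 ± 611.

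Complex I takes electrons from NADH, and its 7 mitochondrial subunits, all of the membrane arm, were the lowest protein genes in TPM. Over the libraries they ranged from 479 to 2433 TPM, and every value lay below the lowest value of complexes III, IV and V, which was 3198 TPM for mt-Co2 in library 3. mt-Nd1 (chrM:2751-3707) led with 2433, 2014 and 1893 TPM. mt-Nd4 (chrM:10167-11544) had 1391, 1154 and 1148 TPM.

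mt-Nd5 (chrM:11742-13565), the longest of the protein genes, had 1002, 912 and 908 TPM. mt-Nd2 (chrM:3914-4951) had 811, 678 and 617 TPM. Both lay below mt-Nd4 in every library. mt-Nd3 (chrM:9459-9806) had 699, 543 and 500 TPM. mt-Nd6 (chrM:13552-14070), the 1 protein gene on the minus strand, had 578, 551 and 518 TPM. As strand handling is not stated, its reads cannot be told apart from those of the opposite strand's RNA. mt-Nd4l (chrM:9877-10173), encoded just before mt-Nd4, had 568, 504 and 479 TPM and was the lowest member in every library. The ranges of mt-Nd2, mt-Nd3, mt-Nd6 and mt-Nd4l overlapped between neighbours.

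**Figure D1:**
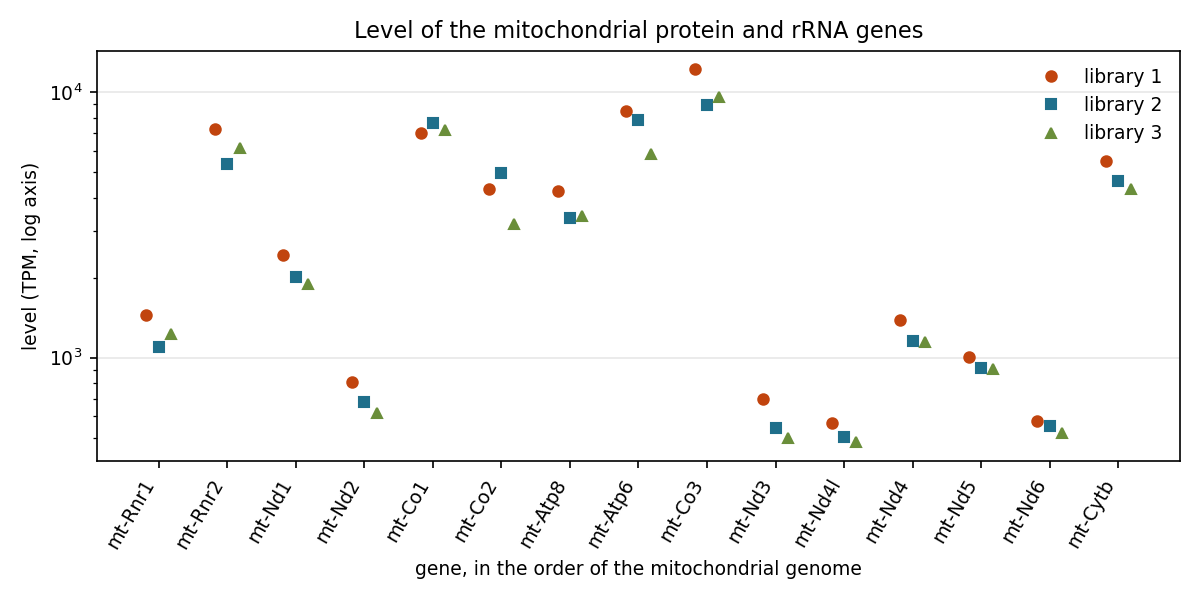
Level of the 13 protein genes and 2 rRNA genes in the order of the mitochondrial genome, in TPM on a log axis, with 1 point per library. mt-Co3 is highest in each library, and the 7 mt-Nd genes lie between 479 and 2433 TPM, below all values of mt-Co1, mt-Co2, mt-Co3, mt-Atp6, mt-Atp8 and mt-Cytb.

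In the order of mean TPM the 15 members ran mt-Co3, mt-Atp6, mt-Co1, mt-Rnr2, mt-Cytb, mt-Co2, mt-Atp8, mt-Nd1, mt-Rnr1, mt-Nd4, mt-Nd5, mt-Nd2, mt-Nd3, mt-Nd6 and mt-Nd4l. Ranges over the libraries stayed apart at 5 of the 14 steps, those after mt-Co3, mt-Atp8, mt-Nd1, mt-Nd4 and mt-Nd5. The ranges of the other neighbours overlapped, which leaves out the pairing of values within a library. Within each library mt-Rnr2 lay above mt-Cytb, mt-Nd2 above mt-Nd3 and mt-Nd6 above mt-Nd4l. The remaining neighbours changed order between libraries. A second deposited transcript table, made from the reads with a transcript index, gave a similar but not equal order (Spearman 0.846 across the 15 genes, which share their libraries). There mt-Atp8 came first at 7443 ± 407 TPM and mt-Co3 next at 6851 ± 882 TPM, and mt-Nd5 fell to the last place at 462 ± 10.2 TPM. In that table too, each value of complex I, 451 to 1342 TPM, lay below the lowest value of the other complexes. In counts per base of annotated length it was otherwise for mt-Atp8, whose 1.93% of the summed level lay below mt-Nd1 (4.36%), mt-Nd4 (2.72%) and mt-Nd5 (2.16%).

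The rRNAs form the core of the mitochondrial ribosome and are known to carry only short tails of A. mt-Rnr2 (ENSMUSG00000064339.1, chrM:1094-2675), the large subunit rRNA, had 7290, 5360 and 6166 TPM from 82826, 51825 and 53859 counts. mt-Rnr1 (ENSMUSG00000064337.1, chrM:70-1024), the small subunit rRNA, had 1449, 1093 and 1230 TPM from 9126, 5855 and 5946 counts. Both were highest in library 1 and lowest in library 2. The ratio of mt-Rnr2 to mt-Rnr1, which stand in equal numbers in the ribosome, was 5.03, 4.90 and 5.01 in TPM, so the balance of the 2 rRNAs varied little between libraries.

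The rRNAs held 24.4%, 20.6% and 24.4% of all mitochondrial counts in libraries 1, 2 and 3 (95% Wilson intervals 24.3 to 24.5, 20.4 to 20.7 and 24.3 to 24.6). Summed protein TPM over summed rRNA TPM was 5.62, 6.77 and 5.36. Library 2 thus had the lowest rRNA share. It was also the library with 9.02 TPM of erythroid markers against 1685 and 1497 TPM in libraries 1 and 3. The part of those cells in the rRNA share was not tested.

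The tRNAs, 59 to 75 bases long, are not polyadenylated in their mature form. In the gene table, with its effective length of 0 for tRNAs, mt-Ts1 alone had any count (3, 3 and 1). The second transcript table gave at least 1 count to each of the 22 tRNAs, and 18 of them reached 1 TPM in every library. Their effective lengths there are so short that 1 count already passes 1 TPM (4.79 TPM for mt-Tv in library 1). For tRNAs this limit thus asks for no more than 1 count. Their counts split by strand. The 8 tRNA genes of the minus strand had a lowest, median and highest count of 35, 72.5 and 2311 in library 1, of 33, 65.5 and 2028 in library 2 and of 15, 50.5 and 1706 in library 3. The 14 tRNA genes of the plus strand had 1, 3.5 and 15 counts in library 1, 0, 3 and 14 in library 2 and 0, 1.5 and 17 in library 3.

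Minus strand tRNAs therefore took 97.4%, 98.1% and 97.8% of the tRNA counts. The groups did not overlap in libraries 1 and 2, while in library 3 the minus strand mt-Ta with 15 counts lay below the plus strand mt-Tm with 17. Since the sources used here do not say whether reads were counted by strand, a read of the opposite strand's RNA cannot be told apart from one of the tRNA.

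mt-Ts1, a serine tRNA, led with 2311, 2028 and 1706 counts. Over effective lengths of 10.2, 10.7 and 10.3 bases these gave 11074, 11812 and 11235 TPM, above every other member in that table. mt-Ts1 lies on the minus strand at chrM:6870-6938, and its last 3 bases are the complement of the stop codon of mt-Co1. It is printed on both strands, with those 3 bases in capitals. On the strand of mt-Co1 it begins with the TAA that ends mt-Co1 above.
mt-Ts1: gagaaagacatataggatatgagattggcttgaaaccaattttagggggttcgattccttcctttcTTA
mt-Ts1 on the strand of mt-Co1: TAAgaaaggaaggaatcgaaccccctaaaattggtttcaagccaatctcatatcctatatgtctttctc
The glutamate tRNA mt-Te, which lies between mt-Nd6 and mt-Cytb, came next with 154, 174 and 114 counts. Without mt-Ts1 the other 7 minus strand tRNAs summed to 531, 516 and 348 counts and the 14 plus strand tRNAs to 77, 49 and 47. Without mt-Ts1, too, the minus strand was the higher group in each library.

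The other minus strand tRNAs with at least 30 counts over the libraries were mt-Tn (asparagine) with 70, 72 and 57 counts, mt-Tp (proline) with 79, 66 and 48, mt-Tc (cysteine) with 75, 65 and 43, mt-Tq (glutamine) with 70, 57 and 53, mt-Ty (tyrosine) with 48, 49 and 18 and mt-Ta (alanine) with 35, 33 and 15. On the plus strand the methionine tRNA mt-Tm alone passed this minimum, with 14, 14 and 17 counts. Of the 9 tRNAs that could be tested, 6 differed between libraries by a chi-square test with Benjamini-Hochberg adjustment (all but mt-Tq, mt-Tm and mt-Tn), where 47.9% of all 17231 genes tested in that table did. The other 13 tRNAs, all of the plus strand, had between 0 and 15 counts in a library.

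**Figure D2:**
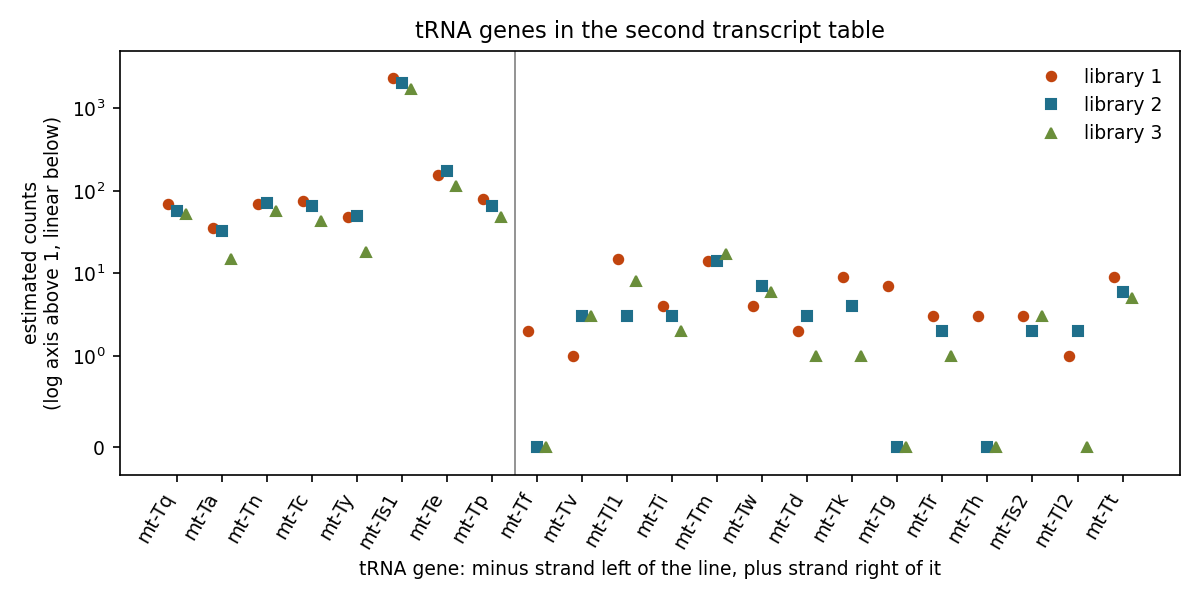
Estimated counts of the 22 tRNA genes in the second transcript table, 1 point per library, on an axis that is logarithmic above 1 and linear below. The 8 minus strand tRNAs, left of the line, hold 15 to 2311 counts, and the 14 plus strand tRNAs hold 0 to 17.

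Copies of mitochondrial DNA that moved into the nuclear chromosomes can draw reads away from the members. A search of the 37 member transcripts against the annotated nuclear transcripts (at least 90% identity over 200 bases, covering 50% or more of the copy) found 15 annotated copies. Of these, 7 had 99% identity or more within the matched bases. All 7 are unprocessed pseudogenes that stand side by side on the minus strand of chr1:24611535-24616197, a stretch of 4663 bases. They follow the order of the mitochondrial genome from mt-Co1 to mt-Nd4. Over their whole length 5 of the 7 are identical to the member: Gm28661 to mt-Co2 (bases 1 to 681), Gm10925 to mt-Atp6 (1 to 678), Gm28437 to mt-Co3 (1 to 783), Gm10222 to mt-Nd4l (1 to 294) and Gm28439 to mt-Nd4 (1 to 876). No annotated copy in this stretch met these limits for mt-Atp8, whose 204 bases are close to the minimum of 200. Gm10925 does hold the 43 bases that mt-Atp8 shares with mt-Atp6. The bases between Gm28661 and Gm10925, where mt-Atp8 would stand in that order, were not searched.

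The other 2 differ from their member within a few bases of the copy's start, and those windows are printed because they are the only letters inside these copies that tell them from the member. Gm28438 matches bases 1 to 345 of mt-Nd3 with T3C as its 1 difference. Gm29216 spans bases 1054 to 1545 of mt-Co1 and has 6 differences, T1056A, C1057T, A1059G, A1060G, C1062A and A1066T. Its identity was taken over the matched bases 1063 to 1545, which hold 1 of these. The member's base comes first, positions count from 1 at the member's first base, and capitals mark the differences.
mt-Nd3 bases 1 to 18: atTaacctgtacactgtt
Gm28438 at the same bases: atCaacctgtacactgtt
mt-Co1 bases 1054 to 1081: ggTCtAAcCggaAttgttttatccaact
Gm29216 at the same bases: ggATtGGcAggaTttgttttatccaact

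These copies took 55920, 31244 and 31793 counts in libraries 1, 2 and 3. That was 12.9%, 10.03% and 11.5% of the counts of members and copies together. How the identical pairs were split differed from gene to gene and from library to library. Gm28661 took 40.5%, 13.5% and 41.4% of the counts it shared with mt-Co2. Gm10925 took 37.5%, 27.5% and 43.3% of those shared with mt-Atp6. Library 2 gave these 2 copies the smallest share. Gm28437 took 15.01%, 19.1% and 7.59% of the counts shared with mt-Co3, and there library 2 gave the largest share.

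Gm28438 took 25.6%, 23.5% and 24.4% of the counts shared with mt-Nd3, and Gm29216 took 13.6%, 11.3% and 10.9% of those shared with mt-Co1. These shares were close to each other across libraries. By the expected counts Gm10222 and Gm28439 took none of the counts of mt-Nd4l and mt-Nd4. The other 8 copies, with 90.7% to 97.6% identity, held at most 21.5 counts in a library, a value of Gm13340, a copy of mt-Co1 on chromosome 2.

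The deposited tables also give a posterior mean and a posterior SD for each count, which measure how far the split is determined by the reads. By the posterior mean Gm28437 took 39.5%, 40.8% and 34.5% of the counts shared with mt-Co3, more than by the expected count in every library. Gm28661 took 42.3%, 26.5% and 43.9% of those shared with mt-Co2. Gm10222, which has none of the expected counts, took 7.33%, 17.9% and 13.8% of those shared with mt-Nd4l. The posterior SD is given in percent of the posterior mean. It was 8.45%, 7.99% and 11.3% for mt-Co2, 6.19%, 6.08% and 7.20% for mt-Atp6 and 8.11%, 6.52% and 9.88% for mt-Co3. For mt-Nd3 it was 19.6%, 18.3% and 11.4%, and for mt-Nd4l 7.55%, 16.4% and 12.3%. These percentages leave out the gap between expected count and posterior mean. For mt-Co3 in library 1 the expected count was 59869 and the posterior mean 42617, with a posterior SD of 3458.

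For mt-Co1, whose copy carries the 6 differences, the posterior SD was at most 0.196% of the posterior mean. It was 0 for mt-Cytb, mt-Nd1, mt-Nd6, mt-Atp8 and both rRNAs. The second transcript table, which assigned more counts to these genes and copies in all (45060 to mt-Co2 in library 1), also split them in another way. There Gm28661 took under 0.001 counts in every library and left the reads to mt-Co2. Gm10925 took 2.29%, 0.334% and 2.03% and Gm28437 0.131%, 0.0170% and 0.0507%. Gm28438 at 35.7%, 25.4% and 23.9% and Gm29216 at 14.2%, 13.1% and 12.8% stayed near the gene table's shares, apart from Gm28438 in library 1.

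**Figure D3:**
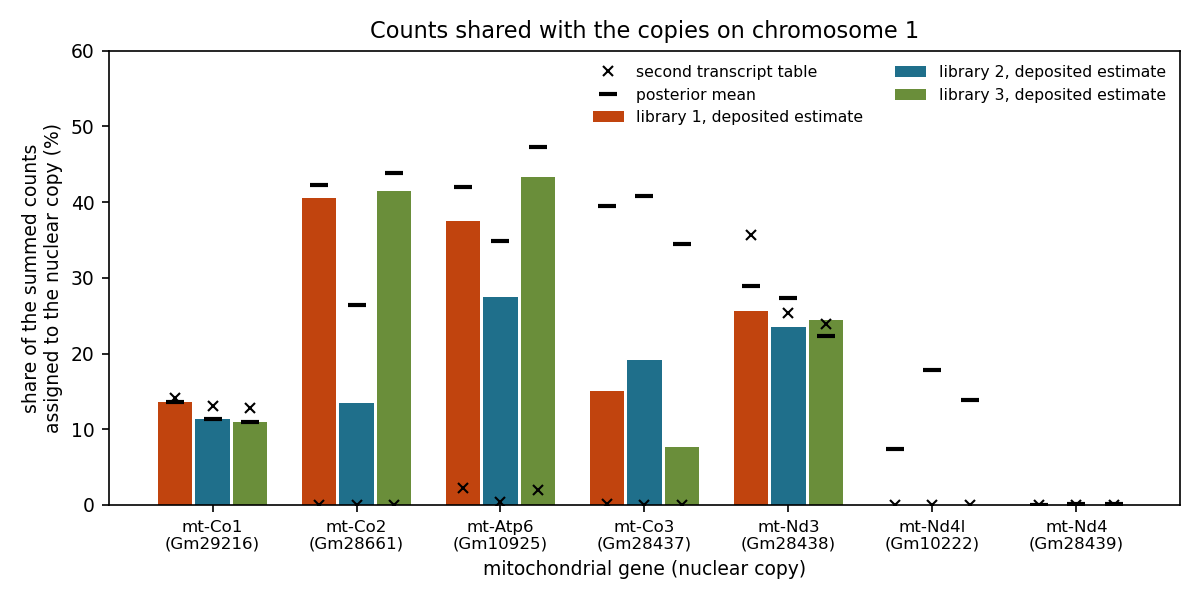
Share of the summed counts of a member and its copy on chromosome 1 that was assigned to the copy, in percent, for 7 pairs and 3 libraries. Bars show the deposited expected counts, dashes the posterior means and crosses the second transcript table. Bars of mt-Co2 run from 13.5% to 41.4% while its crosses lie at 0, and bars and crosses of mt-Co1 lie between 10.9% and 14.2%.

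Adding each copy's counts to its member gives a sum that does not depend on the split. For mt-Co2 the counts alone were 17663, 17331 and 10069, and with Gm28661 they were 29676, 20026 and 17193. After scaling for library size, library 1 stood 1.32 times above the mean of the other libraries by mt-Co2 alone and 1.62 times by the sum. With copies added, mt-Co2 had 7238, 5738 and 5474 TPM. mt-Atp6 then had 13586, 10872 and 10375 TPM and mt-Co3 14329, 11034 and 10380 TPM. In this sum mt-Co3 was the higher of these 2 in each library, but the ranges overlapped. mt-Co1 with Gm29216 had 11761, 11866 and 11015 TPM, above mt-Co3 in libraries 2 and 3, where the copy's TPM is scaled to its shorter length. By summed TPM the first place of mt-Co3 thus did not hold in every library. This rests on the length scaling of Gm29216, whose 12213 counts gave 4770 TPM in library 1. mt-Co1 itself had 6991 TPM from 77336 counts there. Summed counts scaled to the length of the member were not compared.

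A further deposited table gives whole-number counts for the older GENCODE M4 annotation, in which none of the 7 copies is listed. It holds the 13 protein genes and neither the rRNAs nor the tRNAs. Protein genes were compared with the gene table as CPM (counts relative to the summed counts) over 22195 shared genes, with the median gene set to a ratio of 1. There, 6 of the 13 protein genes were under 0.5 times their level in the gene table in every library, where 16.2% of 10723 genes were. The 6 are mt-Co2, mt-Atp8, mt-Atp6, mt-Co3, mt-Nd3 and mt-Nd4l, which follow each other on the genome.

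mt-Co2 had 4, 0 and 0 counts there, against 17663, 17331 and 10069 in the gene table. mt-Atp8 had 0, 0 and 0, mt-Atp6 1, 0 and 2, mt-Co3 1, 4 and 2, and mt-Nd4l 2, 1 and 0 counts. mt-Nd3 had 34, 35 and 59 counts. The highest member of the gene table, mt-Co3, was thus all but missing from this one. Among 1830 genes with 100 CPM or more in the gene table in every library, 13 genes fell below 1% of that level in the M4 table in every library, and 4 of these were mt-Co2, mt-Atp8, mt-Atp6 and mt-Co3.

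The other protein genes had mean ratios of 0.852 or more. mt-Co1 (ratio 1.01 ± 0.0109, SD, n = 3) and mt-Nd4 (0.852 ± 0.0128), each with a copy of part of its length, stood below mt-Cytb (1.46 ± 0.0423), mt-Nd1 (1.60 ± 0.0363), mt-Nd5 (1.65 ± 0.00506) and mt-Nd2 (1.97 ± 0.0603). None of those 4 has a copy of 99% identity. mt-Nd6 had the largest ratio, 2.48 ± 0.0483. It was above 2 times its level in the gene table in every library, as were 1.11% of 10723 genes. The 6 low genes are 5 members whose copy spans nearly all of their length, plus mt-Atp8. For mt-Atp8, bases outside annotated genes were not searched. The part of the copies in these ratios was not tested.

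**Figure D4:**
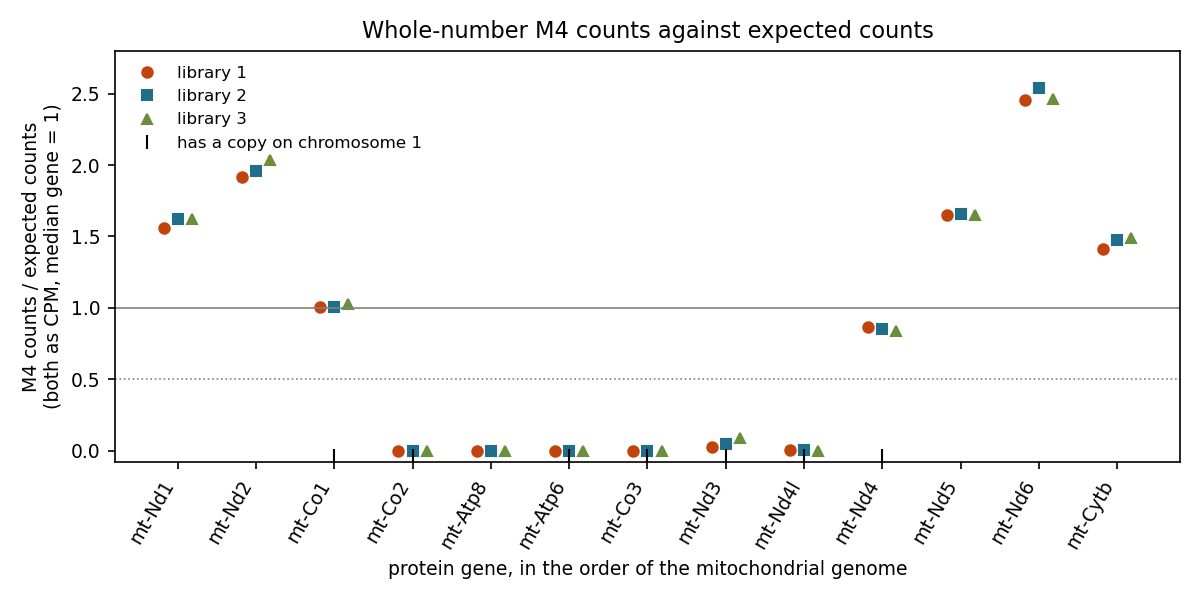
Ratio of whole-number M4 counts to expected counts, both as CPM, for the 13 protein genes in genome order, with 1 point per library and the median of all genes at 1 (solid line; the dotted line marks 0.5). Ticks mark the 7 genes with an annotated copy on chromosome 1. The 6 genes from mt-Co2 to mt-Nd4l lie under 0.1 in every library, and mt-Co1 and mt-Nd4 lie below the 5 remaining genes.

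Differences between the libraries were tested gene by gene against counting noise. A chi-square test compared each gene's rounded expected counts with library totals scaled by edgeR's TMM method, for all 13071 genes with 30 or more counts over the libraries, adjusted by Benjamini-Hochberg and called at 0.05. All 15 detected members were called different, where 54.3% of all genes tested were, and with the copies' counts added all 15 were called as well, against 54.3% of all genes. In the M4 table the 8 members with enough counts were all called, where 63.8% of all 10967 genes tested there were. Among these 8, mt-Nd3 had only 34, 35 and 59 counts and was highest in library 3. By the scaled counts of the gene table all 15 members were highest in library 1, where 24% of all genes were called and highest in library 1. The largest adjusted p of the chi-square test among the members in the gene table was 1.70e-10, for mt-Nd4l. In TPM, mt-Co1 was lowest in library 1, with 6991, 7639 and 7185 TPM in libraries 1, 2 and 3. mt-Co2 was highest in library 2, with 4297, 4962 and 3198 TPM. The other detected members were highest in library 1 in TPM too.

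Scaled counts of library 1 exceeded the mean of libraries 2 and 3 by a median of 0.63 on the log2 scale (with 0.5 counts added) over the 15 members, against a median of -0.01 over all genes tested. The smallest excess was 0.24, for mt-Co1, and the largest 0.76, for mt-Nd3. The ratio between the highest and the lowest library was smallest for mt-Co1, at 1.21, and largest for mt-Atp6, at 1.80. With the copies' counts added mt-Co1 was still smallest, at 1.24, while mt-Atp6 had 1.63 and the largest was mt-Nd3, at 1.78.

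Between libraries 2 and 3 the rRNAs and the protein genes with shared reads differed in several ways. mt-Rnr1 and mt-Rnr2 were lower in library 2 than in library 3, with ratios of 0.872 (95% exact interval 0.841 to 0.904) and 0.852 (0.842 to 0.862). By its own counts mt-Co3 was lower too, at 0.913 (0.900 to 0.927), but with the copy's counts added it was higher, at 1.04 (1.03 to 1.06). In the same way mt-Co2 went from 1.52 (1.49 to 1.56) to 1.03 (1.01 to 1.05) and mt-Atp6 from 1.32 (1.29 to 1.34) to 1.03 (1.015 to 1.05). The ratio of mt-Cytb, which has no annotated copy of 99% identity, was 1.05 (1.03 to 1.07). The other protein genes without such a copy ran from 0.973 (mt-Atp8) to 1.08 (mt-Nd2). The part of read sharing in these ratios was not tested. Without library 1, 9 of the 15 members were called, against 17.5% of all genes, and mt-Atp8, mt-Nd3, mt-Nd4, mt-Nd4l, mt-Nd5 and mt-Nd6 were not. With the copies' counts added the number was also 9, against 17.5% of all genes.

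Gene length moved with this contrast over all genes. Genes tested were put into 10 bins of length. In the bin of the shortest genes (median 610 bases) the median log2 excess of library 1 was 0.50, and in the bin of the longest (median 5522 bases) it was -0.31. The members are short: their median length was 955 bases, against 2186 for all genes tested, and they fell in the 4 shortest bins (7, 4, 2 and 2 members). When libraries were scaled within these bins, the median excess of the members was 0.26, 13 members were called, against 45.4% of all genes, and 11 were called and highest in library 1, against 18.8% of all genes.

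With this scaling mt-Co2 had an excess of -0.10 and mt-Nd6 of -0.06, so their direction turned, while mt-Nd4l had 0.05 and mt-Co1 0.01. The part of length in the excess was not tested otherwise. Neutrophil markers were also highest in library 1, at 34.0 TPM against 0 and 2.59, and their part was not tested.

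**Figure D5:**
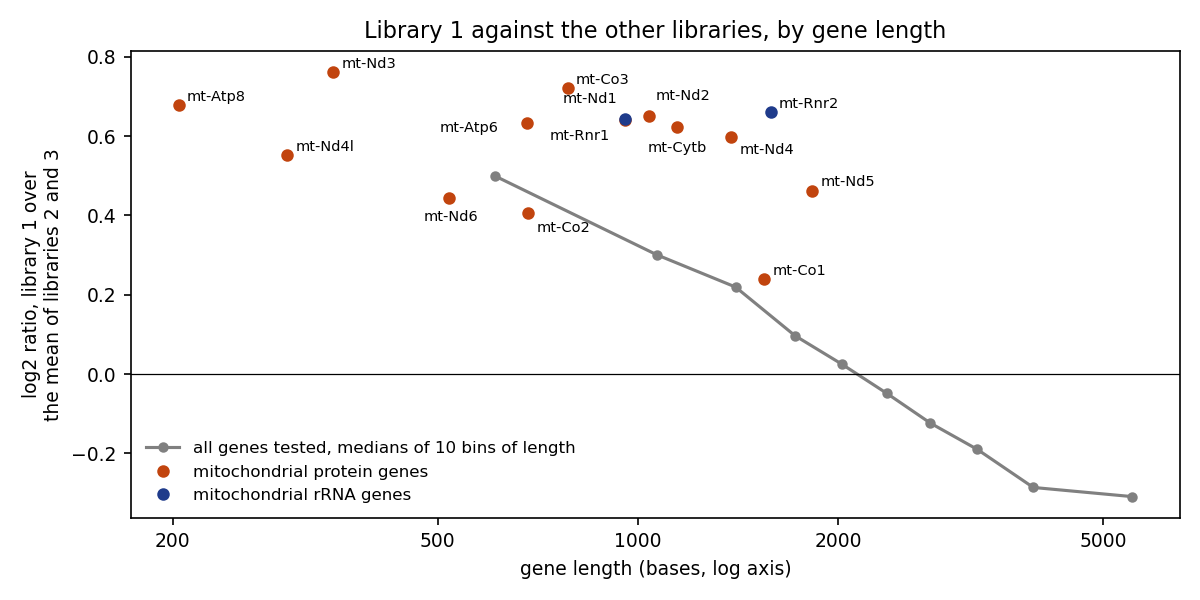
Log2 ratio of library 1 to the mean of libraries 2 and 3 against gene length in bases (log axis). The grey line joins the medians of 10 bins of all genes tested, from 0.50 to -0.31, and the points are the 13 protein and 2 rRNA genes, of which mt-Co1 is lowest at 0.24 and mt-Nd3 highest at 0.76. The points of mt-Nd1 and mt-Rnr1 coincide.

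The genes that transcribe, cut and protect mitochondrial RNA are nuclear, and 47 of them were read as a list. All 47 were detected. The highest were Rexo2, an exonuclease that clears short RNAs, at 109 ± 6.54 TPM (SD, n = 3), Hsd17b10, a subunit of the mitochondrial RNase P that cuts tRNA 5′ ends, at 105 ± 9.23, the mTERF family member Mterf3 at 86.4 ± 2.54 and Ssbp1, which binds single-stranded mitochondrial DNA, at 82.0 ± 8.02. The lowest were Pde12, which removes A tails, at 2.36 ± 0.566, Gtpbp3, a tRNA modifying enzyme, at 2.44 ± 0.112 and Grsf1, an RNA granule protein, at 4.62 ± 0.508 TPM. Each of the 15 detected mitochondrial genes, at 479 TPM or more, stood above all of them.

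Of the 47 genes 25 differed between libraries in the same test, against 54.3% of all genes. Called and highest in libraries 1, 2 and 3 were 16, 4 and 5 genes, against 24%, 13% and 17.4% of all genes. The median log2 excess of library 1 over the 47 genes, whose median length was 1768 bases, was 0.01, against 0.63 for the members. Scaled within bins of length, it was 0.004 for the list and 0.26 for the members. By role, 10 of 11 transcription genes were called, 5 of 8 replication genes, 5 of 12 processing genes and 5 of 16 genes of tails, stability and decay.

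Among the called genes, the ratio between the highest and the lowest library was largest for the RNA methyltransferase Nsun2, with 7.93, 20.8 and 25.0 TPM in libraries 1, 2 and 3. By scaled counts, too, it was lowest in library 1, the reverse of the mitochondrial genes by that measure. Twnk, the helicase of mitochondrial DNA replication, was also lowest there, with 6.91, 16.0 and 12.7 TPM. Tfb1m, which methylates the small subunit rRNA, had 9.39, 7.89 and 6.43 TPM, and Tefm, the elongation factor, had 34.1, 28.2 and 22.2 TPM. Both were highest in library 1. Mterf1b with 14.0, 8.55 and 10.2 TPM and Mterf1a with 34.8, 28.3 and 25.2 TPM are close paralogs, so their split is uncertain. Polrmt, the mitochondrial RNA polymerase, had 15.7, 18.5 and 20.4 TPM, and Tfam, which packages mitochondrial DNA and starts its transcription, had 58.7, 59.3 and 51.7 TPM. These last 2 were named for their role after their values were seen.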

How the data were processed

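Polyadenylated RNA was measured in 3 libraries. Per the deposited readme, the gene table holds expected counts, TPM and FPKM from a transcriptome alignment to mm10 with GENCODE M21. The posterior SD of a count, treated as a score, and the posterior mean stand in the same table, per the file headers. The authors also deposited a second transcript table, of estimated counts and TPM from an index of the same annotation, and whole-number M4 counts per gene, whose unit was read from the values. Column names are those that RSEM and kallisto write, while the sources used here name neither tools nor strand handling.

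Entries that are no mouse genes (0.117%, 0.124% and 0.135% of counts) were left out of totals. Expected counts were rounded for tests. A chi-square test per gene used totals scaled by TMM (edgeR 4.0.16, R 4.3.3), with DESeq2 1.42.0 size factors as an alternative. It was run on simulated counts that held counting noise only. There it called 13 of 12721 unchanged genes, 64 of 100 raised 1.5 times in library 1 and 78 of 100 raised 2 times. The simulation does not show how the test behaves where libraries differ by more than counting noise. Intervals are 95% intervals by Wilson for shares and exact for ratios of counts, and cover counting error only, since PCR reads with no molecular identifier are not independent. Nuclear copies were found with BLASTN 2.17.0 on M21 transcripts in place of the planned search of the genome, since no genome sequence was used here, so copies outside annotated genes were not searched. Calculations used Python 3.11.15, numpy 2.4.6, scipy 1.17.1 and pandas 2.3.3. All members are accounted for. Of 47 machinery genes, named were the 4 highest, the 3 lowest and up to 6 called with the largest ratio between libraries. Prorp was matched by a RefSeq synonym. Members and lists were chosen with earlier results of these data known. Alternatives changed the scaling, filter, source table, libraries, unit and copies.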

Additional observations from a re-analysis of the deposited data

How the results depend on the processing

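Of the members 8 could be tested in the whole-number M4 table and 8 were called (63.8% of all genes were), against 15 in the gene table; the number called when 1 library was left out ran from 9 to 15, lowest without library 1. For the machinery genes that range was 5 to 23, also lowest without library 1, against 25, while the share of all genes called was 17.5%, 49.1% and 46.4% without libraries 1, 2 and 3. The mean mitochondrial share of 3.35% was 3.97% in the second transcript table, 2.31% in the M4 table and 2.57% without the rRNAs. The mean rRNA share of mitochondrial counts, 23.1%, was 27.2% in the second transcript table. Neighbouring levels were apart at 2 of 14 steps in FPKM and at 11 in counts per base of gene length, against 5 in TPM. Scaling within length bins lowered the median log2 excess of library 1 from 0.63 to 0.26, with mt-Co2 at -0.10 and mt-Nd6 at -0.062. At 95% identity and 500 bases 8 nuclear copies were found in place of 15. For these changes the cause was not tested. Of 90 alternatives for the level of single members 68 stayed within the spread of the libraries and 22 moved beyond it. All 22 came from counts per base of gene length and from the second transcript table, under which most members moved. None came from FPKM or from leaving out 1 library. As a share of the members FPKM equals TPM up to rounding, and leaving out 1 library reuses the same values, so these could hardly move. Of 60 for the library 1 ratio of single members 57 kept direction and call, 1 lost the call and 2 reversed. Adding the copies' counts was chosen after seeing the data and changed no call among the 15 members. No value could be given for the rRNA share in the M4 table, which lists no rRNA, or for library 1 against the others without library 1. No paired analysis was possible because the libraries form 1 group.

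Low counts limit what can be read for the tRNAs, of which 13 had under 30 counts in the second transcript table. All libraries come from 1 biological replicate, so nothing here measures the spread between animals. A split of counts between identical sequences rests on the authors' estimate, not on the letters of the reads.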
